A study of Mus musculus with 12 samples.

Results

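The genes of 8 complement components and receptors, out of 55573 genes in the count table, were followed in the hippocampus of APP/PS1 and wild-type (WT) mice. They were the 3 chains of C1q (C1qa, C1qb and C1qc), the components C4b and C3, the anaphylatoxin receptors C3ar1 and C5ar1, and Serping1, the C1 inhibitor. All 8 were found by their Ensembl identifiers, and all 8 were among the 15521 genes that reached a CPM of 1 (counts scaled to library size) in 3 or more libraries. They were chosen by name, from their roles, and no measured value entered the choice of the rows, although earlier results of these data were known.

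The samples were whole right hippocampi from C57BL/6J mice aged 4.5 months, each sequenced as 1 library. APP/PS1 animals carried APPSwe/PS1dE9, a chimeric mouse/human APP with the Swedish mutation and human PS1 lacking exon 9, both driven by a prion promoter. Each sex was represented by 4 APP/PS1 and 2 WT animals. Poly-A RNA was sequenced, and the total count per library ranged from 36714316 to 50643565. The members had between 21 counts (C5ar1, WT male 1) and 6778 counts (C1qa, APP/PS1 female 3) in a library. That the tissue was neural was checked with 8 neuronal markers, which summed to 8842 to 9728 CPM in APP/PS1 and 9106 to 10085 CPM in WT libraries, with none at 0. These markers do not tell the hippocampus from other brain regions, so the region itself was not checked. In bulk tissue, fewer cells of a type and less RNA per cell cannot be told apart.

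Complement is a cascade of secreted proteins that marks targets for removal. C1q, built from its A, B and C chains, starts the classical pathway by binding a target. C4 and then C3 are cleaved and deposited, and the small fragments C3a and C5a act on the receptors C3ar1 and C5ar1. In the brain, C1q is known as a product of microglia, which also carry both receptors, whereas C4 is made by astrocytes among other cells, and the cascade is known for tagging synapses that microglia engulf.

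C3ar1 and C4b were the 2 members that rose in APP/PS1 animals. With both sexes averaged, C3ar1 was 3.21-fold and C4b 2.48-fold the WT level in the fitted model, and all 8 APP/PS1 libraries lay above all 4 WT libraries for both genes. Of all 15521 genes tested, 1.91% were called in this contrast, at an FDR under 0.1, and 1.37% had all APP/PS1 above all WT libraries. The 3 C1q chains had fitted ratios of 1.78 to 1.92 that did not pass the test, and C3, C5ar1 and Serping1 did not pass it either. Relative to microglia markers measured in the same libraries, C3ar1 was 2.02-fold higher in APP/PS1 animals. C4b was 1.46-fold higher, which no longer passed the test without any 1 of 7 animals, and the C1q chains were 1.12- to 1.23-fold higher without passing the test.

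The 3 C1q genes lie next to each other on chromosome 4, on the minus strand, in the order C1qb (ENSMUSG00000036905, chr4:136880129-136886187), C1qc (ENSMUSG00000036896, chr4:136889804-136893065) and C1qa (ENSMUSG00000036887, chr4:136895917-136898803) in GRCm38. The bases before the starts of C1qb and C1qc, and before the start of C3ar1, are shown because C1qb, C1qc and C3ar1 varied together across animals. They come from RefSeq (GRCm38.p6) and are written 5′ to 3′ on the minus strand. The 250 bases before the C1qb start (chr4:136886201-136886450) hold the letters GAGGAA, the core that the myeloid factor PU.1 is known to bind, at positions -30 to -25 from the RefSeq start. The part of the C1qc window outside the annotated gene (chr4:136893066-136893164, 99 bases) holds the same core on the other strand, read as TTCCTC, at positions -193 to -188 from the RefSeq start, which for C1qc lies inside the annotated gene. The corresponding 246 bases for C3ar1 (chr6:122856162-122856407) hold none of the 4 motifs searched. Capitals mark the matches.
C1qb: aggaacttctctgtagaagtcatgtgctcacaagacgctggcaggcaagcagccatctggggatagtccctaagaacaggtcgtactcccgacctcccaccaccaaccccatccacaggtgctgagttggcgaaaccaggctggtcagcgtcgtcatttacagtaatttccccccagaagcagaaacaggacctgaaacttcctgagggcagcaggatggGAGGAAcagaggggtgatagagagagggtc
C1qc: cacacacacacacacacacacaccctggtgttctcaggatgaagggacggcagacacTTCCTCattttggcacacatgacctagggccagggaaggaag
C3ar1: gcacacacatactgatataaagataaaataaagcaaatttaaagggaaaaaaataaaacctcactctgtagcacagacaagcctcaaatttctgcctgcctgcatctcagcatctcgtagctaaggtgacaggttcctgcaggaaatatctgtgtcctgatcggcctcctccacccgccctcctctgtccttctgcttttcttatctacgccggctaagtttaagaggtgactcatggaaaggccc

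The search covered both strands for GAGGAA, for GAAANNGAA (the core of the interferon-stimulated response element), for TTCNNNGAA (the GAS element of STAT factors) and for TTGCNNAA (C/EBP). Of 32851 RefSeq windows of 250 bases, 23.3% held GAGGAA, 7.13% GAAANNGAA, 7.02% TTCNNNGAA and 9.56% TTGCNNAA. In the C3 window, TTGCGAAA, a match to the C/EBP letters, lay at positions -45 to -38. No match overlapped another. These are matches of letters, and nothing about binding was measured. Windows were found for 5 of the 8 members, and C1qa, C4b and Serping1 had none.

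C1qa, which encodes the A chain of C1q, had the highest level per length of the 8 genes. In females, its normalised CPM was 117, 92.8, 156 and 99.3 in APP/PS1 animals against 53.2 and 50.1 in WT animals. In males, it was 118, 102, 71.7 and 86.6 against 46.1 and 87.1. All 4 APP/PS1 females lay above both WT females, but the female contrast did not pass (FDR = 0.369 by edgeR). How many of all genes separate the females in this way was not counted. WT male 2 lay above 2 of the 4 APP/PS1 males. The means were 105 ± 25.5 (SD, n = 8) in APP/PS1 and 59.1 ± 18.9 (SD, n = 4) in WT animals. The fitted log2 fold change was 0.84 ± 0.26 (SE), with an FDR of 0.337 by edgeR's quasi-likelihood test with Benjamini-Hochberg adjustment over all 15521 genes (unadjusted p = 0.0151).

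C1qb, the gene of the B chain, measured 88.0, 45.2, 104 and 75.4 normalised CPM in APP/PS1 females and 31.9 and 36.6 in WT females. In males the values were 114, 100.2, 51.5 and 65.0 in APP/PS1 animals and 33.4 and 58.8 in WT animals. APP/PS1 female 2 and APP/PS1 male 3 fell below WT male 2, and the other 6 APP/PS1 libraries lay above all WT libraries. The averaged log2 fold change was 0.94 ± 0.33 (SE, FDR = 0.425 by edgeR).

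C1qc, the gene of the C chain, followed the same order of animals, with 71.2, 47.2, 90.0 and 64.4 normalised CPM in APP/PS1 females and 30.6 and 33.1 in WT females. The APP/PS1 males had 91.3, 82.7, 49.6 and 56.8, and the WT males 31.5 and 56.6. Again 6 of 8 APP/PS1 libraries exceeded every WT library. Its averaged log2 fold change was 0.84 ± 0.28 (SE, FDR = 0.383 by edgeR).

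All 3 chains therefore had the higher mean in APP/PS1 animals of both sexes, and all 8 APP/PS1 libraries exceeded the WT mean for each of them, but the spread was too large for a call. By edgeR's likelihood ratio test C1qa (FDR = 0.0439) and C1qc (FDR = 0.0867) were called, and over the 21 alternatives their FDRs ran up to 0.618 and 0.656. WT male 2 lay apart from the other WT animals. Without WT male 2, the male log2 fold changes of C1qa, C1qb and C1qc were 1.03, 1.24 and 1.11, and without WT male 1 they were 0.085, 0.33 and 0.19. With all males they were 0.49, 0.70 and 0.57. Other genes stood apart in this library too, named here after their values were seen. Lcn2, the lipocalin-2 gene, was at 19.4 CPM in WT male 2 and at 0.046 to 4.46 in the other 11 libraries. The neutrophil genes S100a8 and S100a9 were at 3.46 and 3.94 CPM, against at most 0.286 and 0.907 elsewhere. Osmr (13.4 CPM) and Cd44 (8.31 CPM) were also highest there, but close to other libraries. APP/PS1 female 1 had 12.4 CPM of Osmr, and APP/PS1 female 3 had 8.30 CPM of Cd44. Their part in the C1q values was not tested. The mean log2 CPM of the microglia markers in WT male 2 was 4.43, inside the range of the other WT libraries, which was 4.29 to 4.59.

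**Figure D1:**
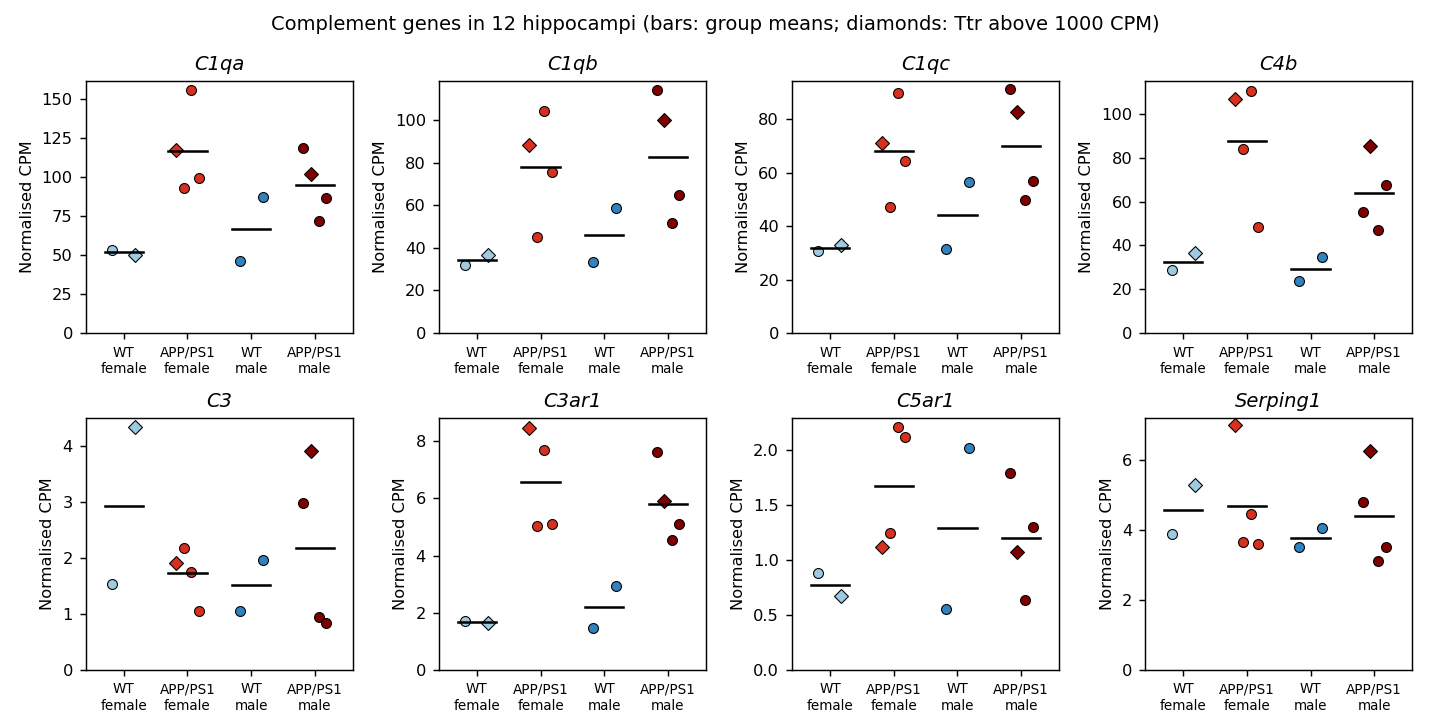
Normalised CPM (vertical axes, linear, from 0) of the 8 complement genes in each of the 12 libraries, by genotype and sex; each point is 1 animal, bars are group means, and diamonds mark the 3 libraries with Ttr above 1000 CPM. C3ar1 and C4b separate all APP/PS1 from all WT libraries, whereas for the C1q chains WT male 2 reaches into the APP/PS1 range.

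C1qb and C1qc were expressed in nearly fixed proportions, and C1qa varied more against both. The ratio of C1qb to C1qc in CPM ran from 0.957 to 1.25 over the 12 libraries, a coefficient of variation of 8.24%. The ratio of C1qa to C1qc ran from 1.23 to 1.97 (12.8%), and that of C1qa to C1qb from 1.02 to 2.05 (19.3%), the lowest in APP/PS1 male 2 and the highest in APP/PS1 female 2. After the group means were taken out, r across the 12 libraries was 0.983 between C1qb and C1qc, 0.946 between C1qa and C1qc and 0.888 between C1qa and C1qb. These are descriptions over libraries that share their normalisation. With 2 WT animals per sex, the deviations of the 2 mirror each other, so the 12 points are not independent.

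C4b, which encodes complement C4, was measured at 107, 83.9, 111 and 48.4 normalised CPM in APP/PS1 females and at 29.0 and 36.4 in WT females. The males had 55.4, 85.3, 47.0 and 67.7 in APP/PS1 animals and 23.8 and 34.9 in WT animals. No APP/PS1 library overlapped the WT libraries, the lowest being 47.0 and the highest WT value 36.4. The means were 75.7 ± 25.1 (SD, n = 8) and 31.0 ± 5.76 (SD, n = 4). C4b rose by 1.31 ± 0.18 (SE) on the log2 scale, with an FDR of 0.0187 by edgeR's quasi-likelihood test with Benjamini-Hochberg adjustment. Leaving out WT female 2 raised this FDR to 0.1004, just over the threshold, with a log2 fold change of 1.26. Over 21 alternatives, the log2 fold change stayed between 1.19 and 1.39, the FDR ran from 2.1e-10 to 0.156, and 19 of them called C4b.

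C4b (ENSMUSG00000073418, chr17:34728380-34743882) has a close copy, C4a (chr17:34809092-34823464), annotated here as a processed transcript, so that reads could be split between them. Of all 150-base stretches of the C4b transcript, the length of a read, 8.26% also occurred in C4a, and of all 300-base stretches 2.64%. Over 37 coding exons of C4b that could be paired with a C4a exon of equal length, 3.69% of 4685 bases differed, and 6 exons did not differ. Exon 23 of C4b (chr17:34734701-34734790) and its C4a counterpart (chr17:34815347-34815436), the pair of up to 200 bases with the largest share of differing bases, are shown because such bases tell the reads of the 2 genes apart. Both are on the minus strand of GRCm38, and capitals mark the 10 bases of 90 that differ.
C4b: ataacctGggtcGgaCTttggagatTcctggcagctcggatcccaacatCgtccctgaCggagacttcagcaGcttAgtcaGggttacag
C4a: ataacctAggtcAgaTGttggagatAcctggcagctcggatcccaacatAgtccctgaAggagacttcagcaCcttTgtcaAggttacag

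C4a itself was low, at 0.334 to 1.93 normalised CPM over the 12 libraries, and its log2 fold change was 0.21 ± 0.30 (SE, FDR = 0.879 by edgeR). The C4b value was 23.8 or higher in every library.

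C3 (ENSMUSG00000024164, chr17:57203970-57228136), the component on which all activation pathways meet, was low, with 33 to 199 counts per library. The normalised CPM was 1.90, 2.17, 1.75 and 1.06 in APP/PS1 females and 1.54 and 4.32 in WT females. It was 2.98, 3.91, 0.93 and 0.84 in APP/PS1 males and 1.05 and 1.96 in WT males. WT female 2 was the highest of all 12 libraries and APP/PS1 male 4 the lowest. The genotypes overlapped in most of their range, with 0.84 to 3.91 in APP/PS1 and 1.05 to 4.32 in WT libraries. The averaged log2 fold change was -0.17 ± 0.39 (SE, FDR = 0.938 by edgeR), and its sign changed when some animals were left out.

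C3ar1 (ENSMUSG00000040552, chr6:122847138-122856161), the receptor for C3a, showed the largest difference of the 8 members. It was measured at 8.47, 5.02, 7.70 and 5.09 normalised CPM in APP/PS1 females and at 1.72 and 1.63 in WT females. In males it was 7.64, 5.91, 4.53 and 5.10 against 1.45 and 2.95. The lowest APP/PS1 value, 4.53, lay above the highest WT value, 2.95, and the means were 6.18 ± 1.52 (SD, n = 8) and 1.94 ± 0.685 (SD, n = 4). C3ar1 rose by 1.68 ± 0.24 (SE) on the log2 scale (FDR = 0.00803 by edgeR), from 55 to 149 counts in WT libraries to 183 to 335 in APP/PS1 libraries. All 21 alternatives called it in the averaged contrast, with log2 fold changes of 1.46 to 1.97 and FDRs of 1.9e-12 to 0.0842.

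C5ar1 (ENSMUSG00000049130, chr7:16246743-16259540), the receptor for C5a, had 21 to 102 counts per library. In females it was 1.11, 1.24, 2.21 and 2.11 normalised CPM in APP/PS1 and 0.87 and 0.67 in WT animals. All 4 APP/PS1 females thus lay above both WT females, but the female contrast did not pass (FDR = 0.633 by edgeR). The share of all genes with this separation in females was not counted. In males it was 1.79, 1.07, 0.64 and 1.29 against 0.55 and 2.02, where WT male 2 lay above every APP/PS1 male. The averaged log2 fold change was 0.47 ± 0.38 (SE, FDR = 0.756 by edgeR).

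Serping1 (ENSMUSG00000023224, chr2:84765387-84775444), the inhibitor of the C1 proteases, was 7.01, 3.65, 4.46 and 3.59 normalised CPM in APP/PS1 females and 3.87 and 5.28 in WT females. It was 4.80, 6.24, 3.10 and 3.50 in APP/PS1 males and 3.49 and 4.04 in WT males. Its averaged log2 fold change was 0.066 ± 0.14 (SE, FDR = 0.928 by edgeR), the smallest of the 8 in size.

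The 3 highest Serping1 values came from APP/PS1 female 1, WT female 2 and APP/PS1 male 2. These libraries stood apart in choroid plexus transcripts, with Ttr, the transthyretin gene, at 3526 to 6318 CPM against 2.68 to 18.2 in the other 9. Serping1 measured 5.28 to 7.01 in these 3 libraries and 3.10 to 4.80 in the other 9, and the mean of C3 was 3.38 against 1.59. The summed CPM of the 8 choroid plexus markers, none of which was at 0 in every library, ran from 23.5 to 6866 in APP/PS1 and from 26.1 to 3989 in WT libraries. Each genotype thus held both kinds, but the WT males did not, as both were among the other 9. Of these markers, Kl was called lower in APP/PS1 than in WT females (FDR = 0.0460 by edgeR). The part of choroid plexus tissue in these values was not tested. Within the other 9 libraries, the averaged log2 fold changes of C4b and C3ar1 were 1.23 and 1.56.

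Among the 8 members, 2 were thus called in the averaged contrast, both higher, beside 297 genes in all, 272 of them higher. The same 2 members were among 213 genes with all APP/PS1 above all WT libraries. The median log2 fold change of the 8 members was 0.84, against 0.011 over all genes, and 7 of the 8 values were above 0.

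Whether the sexes differed was the next question. In females, C3ar1 rose by 2.04 ± 0.35 (SE) on the log2 scale (FDR = 0.0354 by edgeR) and C4b by 1.63 ± 0.26 (SE, FDR = 0.0614). In males, the log2 fold changes were 1.33 ± 0.33 (SE, FDR = 0.376) for C3ar1 and 0.98 ± 0.26 (SE, FDR = 0.464) for C4b, and neither passed. The background was 0.799% of genes called in females (124 genes) and 0.161% in males (25 genes). For the C1q chains the female log2 fold changes were 1.20, 1.18 and 1.10 (C1qa, C1qb, C1qc), each with an FDR of 0.369 or more.

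The female calls rested on few animals. Leaving out WT female 1 or WT female 2 ended both, with FDRs of 0.332 and 0.208 for C4b and 0.279 and 0.202 for C3ar1. Without APP/PS1 female 1 the FDR of C3ar1 was 0.105, and without APP/PS1 female 2 that of C4b was 0.170. Leaving out WT male 1 or WT male 2, which share the dispersion estimate, gave C4b FDRs of 0.115 and 0.117. Over the 21 alternatives, the female FDR ran from 2.9e-07 to 0.332 for C4b and from 7.0e-08 to 0.279 for C3ar1. In males, edgeR's likelihood ratio test called C4b (FDR = 0.0261) and C3ar1 (FDR = 0.0217), as did DESeq2, and over the 21 alternatives the male FDR ran from 0.0150 to 0.999 for C4b and from 0.00366 to 0.646 for C3ar1.

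The difference between the sexes was tested directly, and no member passed. The interaction, the female minus the male log2 fold change, was 0.65 ± 0.36 (SE) for C4b, 0.71 ± 0.47 (SE) for C3ar1 and 0.71 ± 0.51 (SE) for C1qa, each with an FDR of 0.998 by edgeR's quasi-likelihood test. It was 1.04 ± 0.76 (SE) for C5ar1, where WT male 2 stood high. Of all genes tested, 0% were called for the interaction by that test, with 589 at an unadjusted p under 0.05, 1 called by the likelihood ratio test and 2 by DESeq2. Between APP/PS1 females and APP/PS1 males, where 0.0902% of genes (14) were called, no member was. C4b came closest, with 87.5 ± 28.6 (SD, n = 4) normalised CPM in females and 63.8 ± 16.6 (SD, n = 4) in males, a log2 difference of 0.43 ± 0.19 (SE, unadjusted p = 0.0612, FDR = 0.905 by edgeR).

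**Figure D2:**
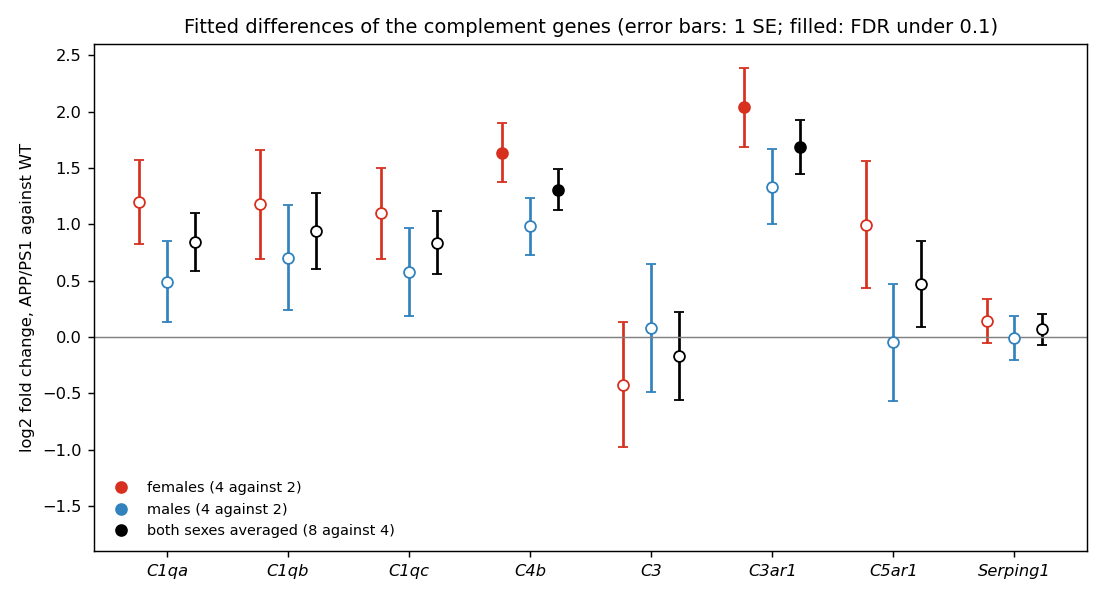
Fitted log2 fold change of APP/PS1 against WT (vertical axis) for the 8 complement genes in females, in males and averaged over both sexes; error bars are 1 SE and filled points have an FDR under 0.1. C3ar1 and C4b are filled in females and in the average, and no male point is filled.

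To set the members against their candidate sources, each was divided by marker genes of microglia (14 genes) or astrocytes (12 genes) in the same library, which removes library scaling. The microglia markers themselves moved with genotype. Of the 14, 11 rose at an FDR under 0.1 in the averaged contrast, among them Csf1r, the receptor that microglia depend on, by 0.58 ± 0.13 (SE) on the log2 scale. The summed CPM of the list was 595 to 874 in APP/PS1 and 390 to 458 in WT libraries, with none at 0, and its mean log2 CPM was 1.61-fold higher in APP/PS1 animals (exact permutation test within sex, two-sided, p = 0.00444, the smallest that 225 splits allow), higher in 8 of 8. None of the 12 astrocyte markers was called. The glutamate transporter genes Slc1a2 and Slc1a3 had log2 fold changes of -0.0054 ± 0.046 (SE) and -0.034 ± 0.043 (SE), and the mean level of the list was 0.980-fold (exact permutation p = 0.436).

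C3ar1 rose more than the microglia markers did. Its log2 ratio to them was -2.13, -2.67, -2.49 and -2.61 in APP/PS1 females and -3.70 and -3.59 in WT females, and -2.39, -2.72, -2.75 and -2.60 in APP/PS1 males against -4.06 and -2.87 in WT males. All 8 APP/PS1 ratios lay above all 4 WT ratios, by 2.02-fold on average (exact permutation p = 0.00444). WT male 2 was again the nearest WT library.

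C4b was 1.46-fold higher relative to the microglia markers (exact permutation p = 0.0400). Its log2 ratios were 1.53, 1.39, 1.36 and 0.645 in APP/PS1 females against 0.368 and 0.894 in WT females, and 0.471, 1.13, 0.628 and 1.13 in APP/PS1 males against -0.015 and 0.700 in WT males. Here 5 of 8 APP/PS1 libraries lay above all WT libraries. The C4b ratio did not pass the test without the 3 Ttr-rich libraries, nor without any 1 of APP/PS1 females 1, 2 and 3, WT female 1, APP/PS1 males 2 and 4 and WT male 1. C3ar1 and C4b are 2 of the 8 members, and 0.477% of all genes were higher relative to these markers at an exact p under 0.05.

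The ratios of the C1q chains to the microglia markers did not pass the test. They were 1.12-fold for C1qa (exact permutation p = 0.427), 1.23-fold for C1qb (p = 0.253) and 1.14-fold for C1qc (p = 0.351) by the same exact test. For C1qa the ratio was largest in WT male 2, at 2.02 on the log2 scale, against 0.937 to 1.36 in the other WT libraries and 1.24 to 1.85 in the APP/PS1 libraries. C3 (0.549-fold, exact p = 0.124) and C5ar1 (0.923-fold, exact p = 0.782) did not pass either. Serping1 was 0.660-fold, lower relative to the microglia markers (exact permutation p = 0.0222), as were 87.5% of all genes, and it did not pass without WT female 2 or WT male 2. With so many genes lower against these markers, adjustment over all genes hardly alters these p-values, which are given unadjusted.

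Relative to the astrocyte markers, 5 members were higher at an exact p under 0.05, where 5.34% of all genes were. C4b was 2.40-fold and C3ar1 3.31-fold higher, both with 8 of 8 APP/PS1 libraries above all WT libraries (exact permutation p = 0.00444 each). C1qa was 1.84-fold (p = 0.00889), C1qb 2.01-fold (p = 0.0178) and C1qc 1.87-fold (p = 0.0133) higher by the same exact test. None of these passed after adjustment over all genes, where the smallest value was 0.284. For C4b the log2 ratios to the astrocyte markers were -0.768, -1.04, -0.587 and -1.82 in APP/PS1 females against -2.60 and -2.29 in WT females, and -1.71, -0.945, -1.79 and -1.40 in APP/PS1 males against -2.82 and -2.38 in WT males. Without the 3 libraries rich in Ttr, C3ar1 and C4b relative to the astrocyte markers, and C3ar1 and Serping1 relative to the microglia markers, remained past an exact p of 0.05, at smaller numbers of splits, and the C1q chains relative to the astrocyte markers did not. Without WT male 1, C1qb and C1qc did not pass either.

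**Figure D3:**
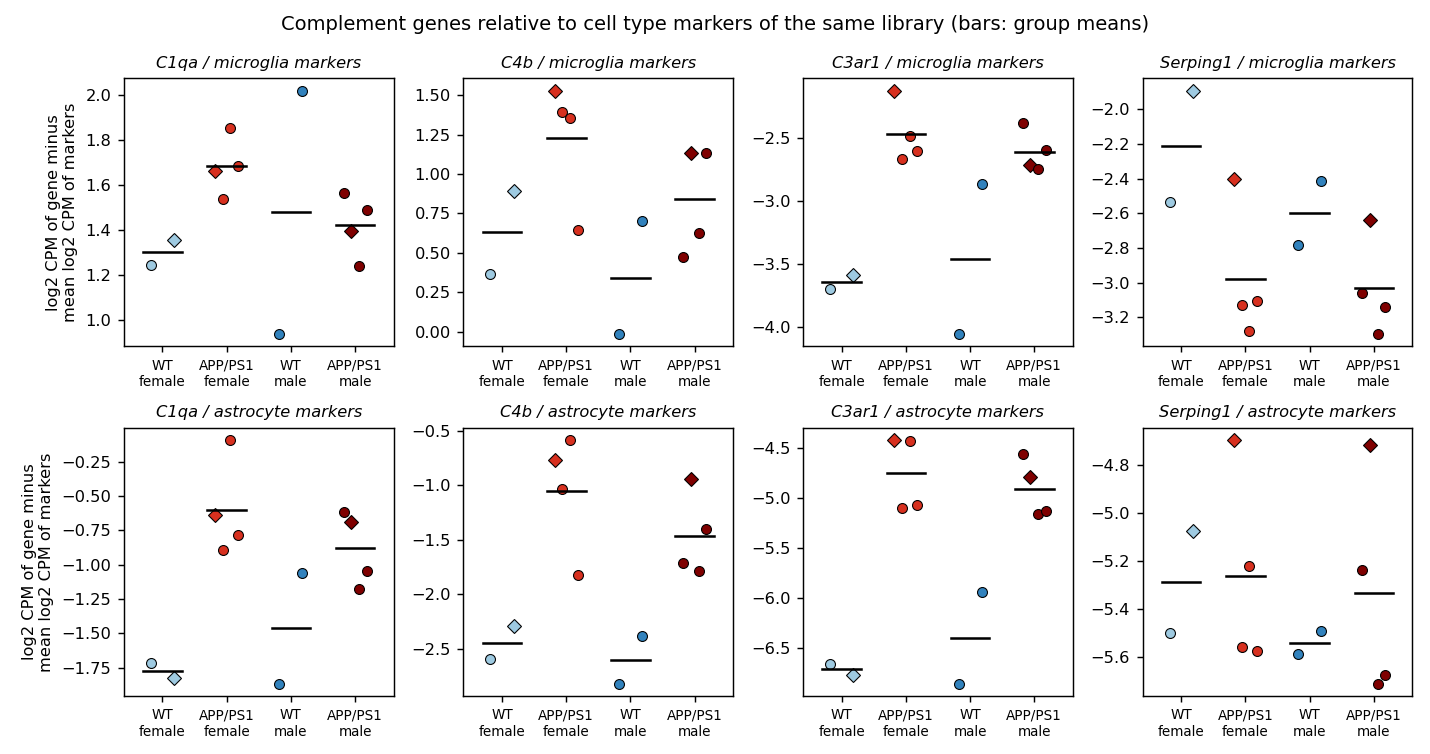
Log2 CPM of C1qa, C4b, C3ar1 and Serping1 minus the mean log2 CPM of the microglia markers (top row) or astrocyte markers (bottom row) of the same library, by group; points are animals, bars group means, and diamonds libraries with Ttr above 1000 CPM. C3ar1 separates the genotypes in both rows, C4b in the astrocyte row, and C1qa overlaps in the microglia row.

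Genes of reactive astrocytes, the state that astrocytes take near injury or plaques, were a separate list. Of its 9 genes tested, 2 rose, Gfap, the intermediate filament gene, by 1.05 ± 0.14 (SE) on the log2 scale (FDR = 0.0137 by edgeR) and the chemokine gene Cxcl10 (FDR = 0.0125). The list's median was 0.20, with 7 of 9 values above 0. In females 8 of 9 were above 0 (median 0.38), and in males 3 of 9 (median -0.085). Lcn2 and Steap4 had averaged log2 fold changes of -2.65 and -0.83, and neither was called. Gfap ran from 533 to 1122 CPM in APP/PS1 libraries and from 392 to 425 in WT libraries, without overlap, as C4b did. The part of reactive astrocytes in the C4b values was not tested. Border macrophage markers summed to 7.21 to 11.5 CPM in APP/PS1 and 7.03 to 12.6 in WT libraries, with none of the 6 at 0 in every library and none of the 3 that could be tested called.

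Within the 8 APP/PS1 animals, the C1q chains and C3ar1, and by rank Serping1, followed the microglia markers. The marker level left a gap between 4 animals at 4.927 to 4.999 and 4 at 5.21 to 5.43 in mean log2 CPM (APP/PS1 females 1 and 3 and APP/PS1 males 1 and 2). These last 4 also had the 4 highest APP/PS1 values of C1qa, C1qb, C1qc, C3ar1 and Serping1. Among them, APP/PS1 female 1 and APP/PS1 male 2 were rich in Ttr. Neither set is large enough for a correlation of its own, so the values of r span both. Pearson's r between log2 CPM and the marker level was 0.88 for C1qa (exact permutation p = 0.00149, Spearman's rho 0.95, p = 0.00114), 0.85 for C1qb (exact p = 0.0126, rho 0.83, p = 0.0154), 0.90 for C1qc (exact p = 0.00518, rho 0.83, p = 0.0154) and 0.85 for C3ar1 (exact p = 0.0150, rho 0.76, p = 0.0368). The other members had r = 0.71 for C3 (exact p = 0.0624), 0.69 for Serping1 (exact p = 0.0621), 0.60 for C4b (exact p = 0.112) and 0.42 for C5ar1 (exact p = 0.294). Their rho was 0.69 for C3 (exact p = 0.0694) and 0.76 for Serping1 (exact p = 0.0368), the value of C3ar1. It was 0.69 for C4b (exact p = 0.0694) and 0.45 for C5ar1 (exact p = 0.268). Of all genes, 3.27% had a positive r at an exact p under 0.05. None of the 16 relations computed passed Benjamini-Hochberg adjustment over all genes.

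Without the 2 animals farthest from the median marker level, r was 0.72 for C1qa (exact permutation p = 0.110), 0.77 for C1qb (exact p = 0.101), 0.82 for C1qc (exact p = 0.0569) and 0.76 for C3ar1 (exact p = 0.0417). All 4 of these values of r fell, and among them only that of C3ar1 stayed at an exact p under 0.05. In the same animals r rose for C3 to 0.86 (exact p = 0.0167) and for Serping1 to 0.96 (exact p = 0.0264). It was 0.76 for C4b (exact p = 0.0986) and -0.089 for C5ar1 (exact p = 0.796). The astrocyte markers gave r between 0.032 and 0.47 over the 8 members, none at an exact p under 0.05 (smallest 0.237), where 1.69% of all genes had a positive r past it. The astrocyte marker level itself varied little, from 7.34 to 7.51 in mean log2 CPM.

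**Figure D4:**
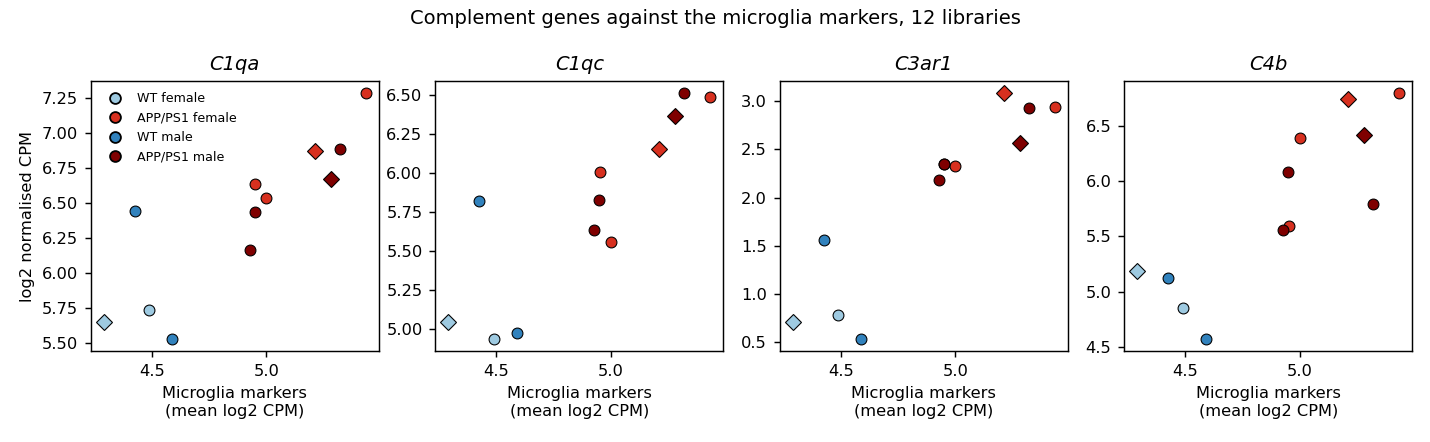
Log2 normalised CPM of C1qa, C1qc, C3ar1 and C4b (vertical axes) against the mean log2 CPM of the 14 microglia markers (horizontal axis) in the 12 libraries; colours give genotype and sex, and diamonds mark libraries with Ttr above 1000 CPM. Within the APP/PS1 points, C1qa, C1qc and C3ar1 climb with the markers, and WT male 2 lies above the other WT points for C1qa, C1qc and C3ar1.

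The levels of the members were compared per length, as normalised CPM per kilobase of annotated exon. In APP/PS1 animals the order was C1qa (101 ± 24.5, SD, n = 8), C1qb (73.9 ± 23.3), C1qc (35.8 ± 9.07), C4b (13.3 ± 4.41), Serping1 (1.95 ± 0.606), C3ar1 (1.44 ± 0.353), C5ar1 (0.558 ± 0.214) and C3 (0.377 ± 0.209). The ranges over animals overlapped between all neighbours in this order except C1qc and C4b, and C4b and Serping1, and C3ar1 and C5ar1. In WT animals the same order held for the first 6, with C3ar1 at 0.450 ± 0.159 (SD, n = 4), close to C3 (0.431 ± 0.282) and C5ar1 (0.401 ± 0.262). C3ar1 thus stood apart from C3 and C5ar1 in APP/PS1 animals and among them in WT animals.

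Each member was also matched with the genes whose deviations from the group means were most like its own over the 12 libraries. The closest were Abi3, Was and Ctss for C1qa (r from 0.963 to 0.984), Ms4a6c, Cd300c2 and Cd48 for C1qb (0.935 to 0.950), and Myd88, Ctss and Il21r for C1qc (0.952 to 0.966). For C3ar1 they were Ppp1cc, H2-Q7 and Rnaseh2c (0.942 to 0.987), for C5ar1 Gabbr2 and Dhx38 (0.956 and 0.933), for C4b Nradd, Rrbp1 and Man2b2 (0.945 to 0.973), for C3 Cwc22, Uaca and P4hb (0.963 to 0.982), and for Serping1 Dnase2a, Ctsc and Trp63 (0.951 to 0.974). Among the members, C1qa and C3ar1 deviated together (r = 0.907), whereas C5ar1 had r = 0.113 with C4b and 0.031 with Serping1. With 12 libraries, in which the deviations of the WT animals of a sex mirror each other, and 15521 genes, these likenesses are descriptions only.

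Of 50 other complement genes, 28 were expressed enough to be tested. In the averaged contrast 3 rose and none fell, where 1.91% of all genes tested were called. All 3 encode subunits of the complement receptors CR3 and CR4, the integrins through which microglia and other myeloid cells bind C3 fragments. Itgax, the alpha chain of CR4, went from 0.158 to 0.391 normalised CPM in WT libraries to 1.64 to 5.65 in APP/PS1 libraries, a log2 fold change of 4.05 ± 0.26 (SE, FDR = 3.9e-06 by edgeR), and it was called in both sexes. Itgb2, the beta chain common to both receptors, had a log2 fold change of 1.11 ± 0.22 (SE, FDR = 0.0523), and Itgam, the alpha chain of CR3, 0.49 ± 0.12 (SE, FDR = 0.0740). Itgam shares exons with the gene model Gm49368 on the same strand, so its counts are uncertain.

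The remaining groups of the pathway gave no call. Of 14 initiating proteases and lectins, 5 were tested, and their median log2 fold change was -0.052. Of 18 regulators 16 were tested, and the median was -0.0055. None of the 7 terminal components, which form the lytic pore, reached the expression minimum, and their summed CPM was 1.03 to 1.90 in APP/PS1 and 1.03 to 1.44 in WT libraries. The 5 genes with the highest level per length were Clu, Sez6l2, Sez6l, Sez6 and Susd4, of which Clu, the gene of clusterin, measured 701 to 943 normalised CPM in APP/PS1 and 663 to 876 in WT libraries (log2 fold change 0.080 ± 0.074, SE). Over the 28 genes the median log2 fold change was 0.023, against 0.011 over all genes.

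**Figure D5:**
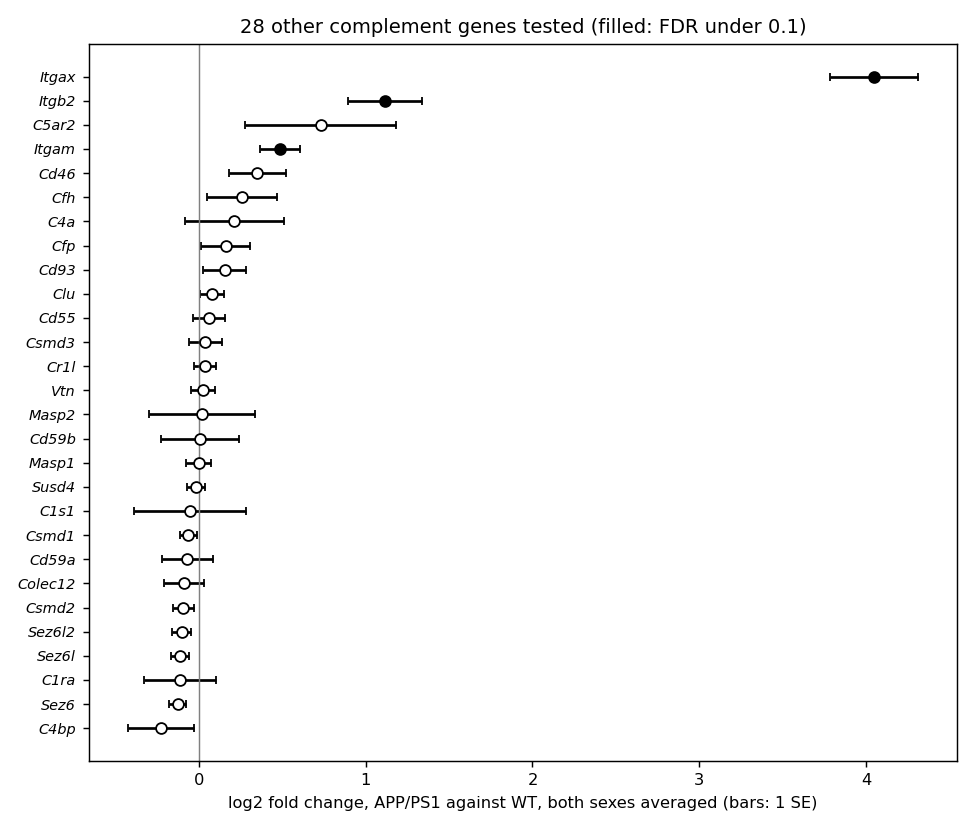
Fitted log2 fold change (horizontal axis) of the 28 other complement genes tested, both sexes averaged; bars are 1 SE and filled points have an FDR under 0.1. The receptor subunit genes Itgax, Itgb2 and Itgam are filled, and the other 25 are not.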

How the data were processed

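Per the labels and the paper's methods, directional libraries were made from the poly-A RNA of 12 hippocampi. Reads were trimmed (Trimmomatic), aligned to GRCm38 (STAR) and assigned to Ensembl genes (HTSeq) by the authors, who deposited raw counts per gene. Tool versions, the annotation release and the settings of the counting are not given in the sources used here. GENCODE M21 gave symbols for 55394 and positions for 55480 of 55573 identifiers, and 21952 genes had no count.

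The filter kept 15521 genes with a CPM of at least 1 in at least 3 libraries, the reading of the study's filter that gives its number of genes. Scaling used upper-quartile factors, and 2 RUVg factors, computed here from control genes that left out the 5000 top genes of a first test over groups, were covariates beside the 4 groups. Contrasts were tested two-sided with edgeR's quasi-likelihood test (R 4.3.3, edgeR 4.0.16) on all 12 libraries, with 6 residual degrees of freedom. FDR is the Benjamini-Hochberg adjusted p over all genes tested, and a gene was called below 0.1. The study used the likelihood ratio test, which was run as an alternative, as was DESeq2 (1.42.0). Standard errors are the log2 fold change divided by the root of the F statistic. Normalised CPM uses the scaled library sizes. Ratios to marker lists were tested by exact permutation of animals within sex, and correlations by exact permutation of pairings. Their p-values were adjusted over all genes instead of over the 16 member and list pairs first intended.

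The edgeR fit was tried on simulated counts with the same dispersion for every gene, unlike the real data. The exact permutation tests were tried on random normal values, not on counts. At 36714316 to 50643565 counts per library, the spread between animals limits the precision. Counting error adds to it for C3 and C5ar1, and for C3ar1 in WT libraries (55 to 149 counts). Within groups, the 14 pairs of libraries had a chi-square of 12.6 to 57.2 per degree of freedom, so none was a repeat. The members and the gene lists were chosen with earlier results of these data known. Named genes were all members, the other complement genes past the FDR, the 5 highest per length and C4a, up to 4 examples of a marker list by highest count, and the 3 genes most like each member, of which some are not reported here. Cxcl10 was named because it was called. The lists of microglia, astrocyte, reactive astrocyte, choroid plexus and border macrophage markers are reported, and those of neurons, oligodendrocytes, endothelium, fibroblasts and of neutrophils and blood gave no call with both sexes averaged. Of the 6 neutrophil and blood markers, 2 (Hba-a1 and Hbb-bs) passed the filter and were tested.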

Additional observations from a re-analysis of the deposited data

How the results depend on the processing

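C3ar1 was called with both sexes averaged under all 21 alternatives and C4b under 19 of them, and no alternative turned the direction of either in any of the 3 genotype contrasts. The number of members called with both sexes averaged, 2, became 4 under edgeR's likelihood ratio test (C1qa, C1qc, C4b and C3ar1) and 1 to 2 as each animal was left out, with 181 to 401 genes called. In females, where 2 members and 124 genes were called, 1 member and 78 genes passed an FDR of 0.05, 1 member was called without RUV factors, and 0 to 2 members and 23 to 191 genes as each animal was left out. Genes called in females were 320 by the likelihood ratio test, 311 by DESeq2 and 197 without a filter on low counts. In males, where 0 members and 25 genes were called, the likelihood ratio test called 2 members and 135 genes, DESeq2 2 and 130, and the fit without the 3 Ttr-rich libraries 1 (C3ar1) and 43. The male genes were 15 at an FDR of 0.05 and 42 without the filter, and leaving out each animal gave 0 to 1 members (C4b without APP/PS1 female 3) and 6 to 102 genes. The interaction gave 1 gene by the likelihood ratio test, 2 by DESeq2 and 6 without the filter, and the contrast of APP/PS1 females with APP/PS1 males gave 30, 32 and 22, and 9 without RUV factors; no member was among them. Causes were not tested.

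Deviations from the group means correlated between -0.606 and 0.666 for the same replicate number and between -0.666 and 0.668 for different numbers. With 2 WT animals per sex, the deviations of the 2 mirror each other, so these ranges cannot show whether the numbers paired the animals. Between APP/PS1 females and APP/PS1 males of the same number, r was -0.385, -0.387, 0.23 and -0.156. With the replicate block, 1 member (C3ar1) was called with both sexes averaged and 0 in females, and 26 genes between APP/PS1 females and males. Under the block the averaged log2 fold change of C3 was 0.29, and the male ones of C5ar1 and Serping1 were 0.13 and 0.071.

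Sign changes were seen among the uncalled values of C3, C5ar1 and Serping1, and among marker ratios of C1qa and C1qc. Without the 3 Ttr-rich libraries, the log2 fold change of Serping1 was -0.0205 averaged, -0.0450 in females and 0.0039 in males, and in males that of C3 was -0.048 and of C5ar1 0.010. Without RUV factors the male value of Serping1 was 0.225. As each animal was left out, C3 ran from -0.40 to 0.13 averaged and from -0.43 to 0.61 in males, Serping1 from -0.048 to 0.14 averaged, -0.082 to 0.30 in females and -0.15 to 0.087 in males, and C5ar1 from -0.70 to 1.27 in males. The number of the 16 member and marker pairs past an exact p of 0.05 was 8, 4 without the 3 Ttr-rich libraries, and 5 (without WT male 1) to 10 (without WT male 2) as each animal was left out. The log2 difference relative to the microglia markers then ran from -0.11 to 0.43 for C1qa, -0.064 to 0.44 for C1qc and -0.62 to 0.39 for C5ar1, and that of C3 relative to the astrocyte markers from -0.52 to 0.22. The correlation of C5ar1 with the microglia markers was -0.089 without the 2 animals farthest from the median. The low counts of C3 and C5ar1 and the 2 WT animals per sex limit all of these values.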
